A study of Mus musculus with 20 samples.

Results

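The collagens are the main structural proteins of the extracellular matrix, and the RNA of their chains was compared between wild-type and Myd88KO mouse tracheas before and after a detergent injury. A collagen gene was taken as any gene whose array name starts with Col, a number, the letter a and a further digit, with Col17a1 left out. This rule found 80 of 41174 probes, under 40 gene names. Of these, 4 probes belong to Col4a3bp, which encodes a lipid transfer protein and no collagen chain, and they were set aside. The remaining 76 probes stand for 39 collagen chain genes. Probes were tested where the software classed 10 or more of the 20 arrays as well above background, which held for 59 probes of 37 collagen genes and for 26063 probes in all. Col4a3 and Col28a1 had no such probe. A further 4 array names that a current gene table gives as Col26a1, Col6a4, Col11a1 and Col6a6 fell outside the rule and were not used.

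The samples were whole tracheas in 4 groups of 5. Uninjured and injured wild-type mice were C57/Bl6, and uninjured and injured Myd88KO mice lacked the adaptor protein Myd88 on a back-crossed C57/Bl6 background. The knockout line was bred knockout to knockout as a colony of its own, so genotype and colony cannot be told apart. Injured mice had received 10 µl of 2% polidocanol, a detergent that strips the tracheal lining, 3 days before the trachea was taken. The labels call the uninjured mice controls and say no more about their handling. The labels give an age of 4 months for every mouse and the methods 4 to 6 months and both sexes, without the sex of each sample. Nothing in the labels pairs or links animals, so the p values measure the spread between these samples.

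A collagen is built from chains that wind around one another in a triple helix, and the chain genes fall into classes by the structure they form. Fibrillar collagens (types I, III and V among others) assemble into the tension-bearing fibrils of connective tissue. Cartilage collagens (II, IX, X and XI) form the finer network of the tracheal rings. Basement membrane collagens include the type IV network, the type VII anchoring fibrils and the multiplexins XV and XVIII, which carry heparan or chondroitin sulphate. Type VI forms beaded filaments and type VIII a short-chain network. Fibril-associated collagens with interrupted helices, called FACIT, decorate the surface of fibrils, and transmembrane collagens sit in the plasma membrane. In a wound, fibroblasts lay down fibrillar collagen and type VI, and the injured basement membrane is rebuilt under the epithelium. Myd88 carries signals from Toll-like and interleukin-1 receptors to the inflammatory response.

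All levels below are log2 intensities relative to the 75th percentile of the array, which is 0 on this scale, and differences are in log2 units. Levels of different probes cannot be ranked against one another. A gene is represented by its brightest tested probe unless another is named. The 3 largest classes were the basement membrane and interstitial fibrillar groups, with 8 tested genes each, and the cartilage group with 7. FACIT had 6, the beaded filament and short-chain group 5 and the transmembrane group 3. In whole trachea, fewer cells of a type and less RNA in each cell cannot be told apart.

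The arrays of injured Myd88KO tracheas were not alike. Over 25843 probes, replicates 1 and 5 had a median correlation of 0.956 and 0.974 with uninjured wild-type arrays and of 0.928 and 0.931 with injured ones. The other injured Myd88KO arrays were closer to injured wild-type arrays, replicates 2 and 4 clearly (0.975 and 0.966 against 0.940 and 0.932) and replicate 3 by little (0.959 against 0.956). Replicates 1 and 5 of every group lay on the slides scanned on the later of 2 consecutive days, and replicates 2, 3 and 4 on those scanned on the earlier day, with 1 array of each group on every slide. The main counts and medians that rest on the injured Myd88KO group are therefore given within each scan day too. Myd88 ranged from 1.94 to 2.28 in uninjured wild-type and 1.60 to 2.04 in uninjured Myd88KO arrays, ranges that overlap. After injury it ranged from 2.36 to 2.80 in wild-type and 1.54 to 2.09 in Myd88KO arrays. Where its probe lies relative to the deleted part was not analysed here. Between 57.5% and 67.8% of spots were well above background on each array. The lowest share was that of injured Myd88KO replicate 5, which also had 192 outlier spots, against 69 to 113 on every other array. The part of array quality in the collagen differences was not tested.

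Collagen RNA rose after injury of the wild-type trachea in 3 genes: Col18a1 by 1.57, Col5a1 by 1.52 and Col6a3 by 1.35 (n = 5 per group). By limma, 3 of the 59 collagen probes passed a Benjamini-Hochberg adjusted p under 0.01, all higher and 1 for each of these genes. This is 5.08% of collagen probes, beside 3.24% of all tested probes called higher. No collagen probe was called lower, where 2.03% of all probes were. At an unadjusted p under 0.05, 24 collagen probes were higher (40.7%, all probes 14.5%) and 6 lower (10.2%, all probes 11.9%). At an adjusted p under 0.05, 12 collagen probes were higher (20.3%, all probes 7.74%) and 3 lower (5.08%, all probes 4.98%). The groups did not overlap for 19 probes that were higher (32.2%, all probes 7.89%) and for 2 that were lower (3.39%, all probes 4.68%). The share of probes above 0 was 55.9% for the collagens and 50% for all probes. The number of calls changed with single arrays. Leaving out 1 array in turn gave 0 to 7 collagen probes called higher: 0 without uninjured wild-type replicate 1, 2, 4 or 5 or injured wild-type replicate 1, 2, 3 or 5, 1 without uninjured wild-type replicate 3, injured wild-type replicate 4 or uninjured Myd88KO replicate 4, 5 without injured Myd88KO replicate 1, 2 or 4, and 7 without injured Myd88KO replicate 5. Beside the 7 of 59 collagen probes called higher without injured Myd88KO replicate 5, 4.45% of all probes were. Shares of all probes called are not given for the other fits, so their counts do not show whether the collagens moved more than the array did. By gene, the Col5a1 call was lost in 16 of 20 such fits (highest adjusted p 0.0264), all but those without injured Myd88KO replicate 1, 2, 4 or 5. The Col18a1 call was lost in 10 (highest 0.0238), without any 1 uninjured wild-type array, uninjured Myd88KO replicate 4 or injured wild-type replicate 1, 2, 3 or 5. The Col6a3 call was lost in 9 (highest 0.0184), without uninjured wild-type replicate 1, 2, 4 or 5 or any 1 injured wild-type array.

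Col18a1 encodes the chain of collagen XVIII, the basement membrane proteoglycan whose end fragment is endostatin. In uninjured wild-type arrays its level was 2.20, 1.69, 1.98, 2.47 and 2.28 in replicates 1 to 5. After injury it was 3.51, 3.57, 3.89, 3.28 and 4.23, so that every injured array lay above every uninjured one. The difference was 1.57 (SE 0.36, limma adjusted p = 0.00717), and it was positive on 5 of 5 slides (0.81 to 1.95). A second Col18a1 probe gave 1.63 (adjusted p = 0.0129). The probe called lies at chr10:76707663-76707722 on the minus strand as the files give it, with no build stated. With the slide as a replicate block the 2 probes changed places at the threshold of 0.01: the first had an adjusted p of 0.0114 and the second passed at 0.00814.

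Col5a1 encodes a chain of collagen V, which sits inside type I fibrils and sets their diameter. Its level in uninjured wild-type arrays was 2.98, 2.53, 2.80, 2.70 and 2.89, and in injured ones 4.29, 3.98, 4.65, 3.82 and 4.76. The groups did not overlap, and the difference was 1.52 (SE 0.36, limma adjusted p = 0.00889), positive on 5 of 5 slides (1.12 to 1.87). A second probe gave 1.24 (adjusted p = 0.0327). The first lies at chr2:28044683-28044742 on the plus strand as the files give it. With the slide as a replicate block its adjusted p was 0.0181.

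Col6a3 encodes a chain of collagen VI, the beaded filament that links cells to the fibrils around them. It stood at 3.35, 3.49, 3.59, 3.37 and 3.20 in uninjured and at 4.62, 4.74, 5.11, 4.52 and 4.74 in injured wild-type arrays. These groups were well apart and had the smallest spread of the 3 genes. The difference was 1.35 (SE 0.30, limma adjusted p = 0.00656), positive on 5 of 5 slides (1.16 to 1.54). A dimmer second probe, well above background on 16 arrays, gave 1.39 (adjusted p = 0.0846). The first lies at chr1:90671098-90671157 on the minus strand as the files give it. With the slide as a replicate block its adjusted p was 0.00556.

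The RefSeq annotation of GRCm38.p6 gives a promoter for 31 of the 39 collagen genes, as 34 windows of 250 bases before an annotated start. The windows of the 3 called genes are given, with those of Col1a2 and Col3a1 as fibrillar genes whose injury difference was positive too. Capitals mark matches, on either strand, to the CCAAT box (CCAAT), the GC box (GGGCGG) and the TATA box (TATAAA). Each sequence reads 5′ to 3′ along the strand of its gene.
Col18a1 (chr10:77113706-77113955, minus strand): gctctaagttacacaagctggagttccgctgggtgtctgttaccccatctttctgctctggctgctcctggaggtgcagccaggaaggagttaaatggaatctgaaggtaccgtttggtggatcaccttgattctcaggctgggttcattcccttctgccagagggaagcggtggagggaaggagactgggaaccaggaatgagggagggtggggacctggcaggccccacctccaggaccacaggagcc
Col18a1 (chr10:77166531-77166780, minus strand): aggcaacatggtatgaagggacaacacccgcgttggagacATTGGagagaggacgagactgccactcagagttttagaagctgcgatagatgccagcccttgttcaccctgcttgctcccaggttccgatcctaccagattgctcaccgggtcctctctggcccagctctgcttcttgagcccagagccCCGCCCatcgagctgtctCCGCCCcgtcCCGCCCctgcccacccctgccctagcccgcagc
Col5a1 (chr2:27886175-27886424, plus strand): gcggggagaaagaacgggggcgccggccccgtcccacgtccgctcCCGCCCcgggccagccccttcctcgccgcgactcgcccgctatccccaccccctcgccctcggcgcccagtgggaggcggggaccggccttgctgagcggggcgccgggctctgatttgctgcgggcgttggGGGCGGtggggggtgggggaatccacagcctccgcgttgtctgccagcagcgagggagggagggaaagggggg
Col6a3 (chr1:90843972-90844221, minus strand): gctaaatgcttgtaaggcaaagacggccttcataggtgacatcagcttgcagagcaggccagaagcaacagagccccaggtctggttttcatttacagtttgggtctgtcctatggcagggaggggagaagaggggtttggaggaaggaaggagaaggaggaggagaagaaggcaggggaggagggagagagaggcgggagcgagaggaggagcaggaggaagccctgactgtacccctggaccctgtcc
Col1a2 (chr6:4505368-4505617, plus strand): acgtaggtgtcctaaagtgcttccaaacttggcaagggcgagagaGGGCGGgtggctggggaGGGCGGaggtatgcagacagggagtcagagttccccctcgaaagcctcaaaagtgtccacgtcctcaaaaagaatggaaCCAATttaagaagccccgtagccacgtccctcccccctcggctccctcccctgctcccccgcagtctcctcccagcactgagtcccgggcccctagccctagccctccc
Col3a1 (chr1:45311288-45311537, plus strand): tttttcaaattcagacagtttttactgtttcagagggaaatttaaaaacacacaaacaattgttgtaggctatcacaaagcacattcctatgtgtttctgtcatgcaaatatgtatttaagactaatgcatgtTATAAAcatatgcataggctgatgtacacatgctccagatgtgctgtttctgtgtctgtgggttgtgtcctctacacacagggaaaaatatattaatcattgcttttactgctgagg

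The 2 annotated starts of Col18a1 differed in these letters. The window of one held none of the 3 motifs, and that of the other held a CCAAT box on the opposite strand and 3 GC boxes in its last 61 bases. The Col5a1 window held 2 GC boxes, at 205 and 73 bases before the start, and the Col6a3 window none of the motifs. In Col1a2, a CCAAT box lay 109 bases and GC boxes 205 and 188 bases before the start. Col3a1 had a TATA match at 117 bases. Over all 34 collagen windows, 19 held a GC box (55.9%, against 32.7% of 32851 mouse windows of the same length), 11 a CCAAT box (32.4% against 33.8%) and 4 a TATA match (11.8% against 12.4%). These matches are a description of the letters in these windows.

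Of the 7 fibrillar genes other than Col5a1, 5 had a difference above 0 after injury in wild-type mice, and none passed the threshold of 0.01. Col1a1 and Col1a2 encode the chains of collagen I, the main protein of connective tissue fibrils. Col1a1 stood at 7.00, 6.11, 6.56, 6.25 and 6.77 in uninjured and at 7.67, 7.26, 7.55, 7.17 and 7.80 in injured wild-type arrays, a difference of 0.95 (SE 0.33, limma adjusted p = 0.0695). Its dimmer probes gave larger differences, 1.56 each (adjusted p = 0.0302 and 0.0438). Col1a2 stood at 6.94, 6.30, 6.46, 6.26 and 6.81 and then at 7.55, 7.13, 7.72, 7.05 and 7.96 (difference 0.93, SE 0.31, adjusted p = 0.0526). For both genes every injured array lay above every uninjured one.

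Col3a1 encodes the chain of collagen III, which forms thinner fibrils and is laid down early in wounds. Its level was 6.82, 6.34, 6.11, 5.98 and 6.35 in uninjured and 7.52, 7.15, 7.61, 7.01 and 7.89 in injured wild-type arrays, again with no overlap. The difference was 1.12 (SE 0.35, limma adjusted p = 0.0396), and a dimmer probe gave 1.67 (adjusted p = 0.0225). The remaining collagen V chains had differences of 1.66 for Col5a2 (0.48 to 1.04 uninjured and 1.88 to 2.89 injured, adjusted p = 0.0371) and 0.97 for Col5a3 (1.35 to 2.00 and 2.07 to 3.16, adjusted p = 0.0267). Of the 8 fibrillar genes, 6 had groups that did not overlap, all of them higher, and the class median was 0.96. The exceptions were Col24a1 (-0.24) and Col27a1 (-0.29), 2 fibrillar genes known from bone and cartilage.

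**Figure D1:**
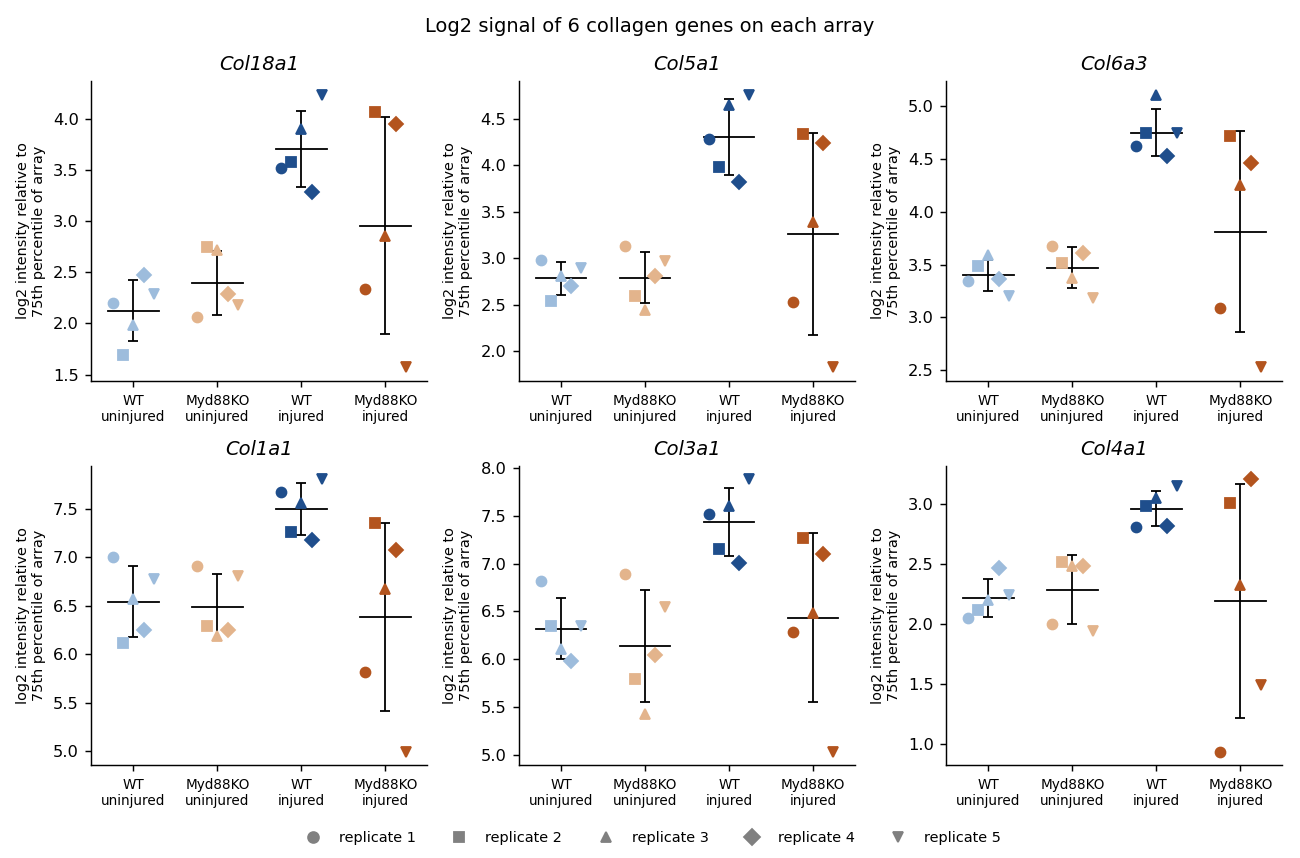
Log2 level of Col18a1, Col5a1, Col6a3, Col1a1, Col3a1 and Col4a1 in each of the 20 arrays, relative to the 75th percentile of the array, by group. Each point is 1 array, its shape gives the replicate number, the line is the group mean and the bar the SD. Col18a1, Col5a1 and Col6a3 lie higher on all 5 injured wild-type arrays than on any uninjured wild-type array, and the injured Myd88KO arrays are spread from below the uninjured to the injured wild-type levels.

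Neither of the other chains of collagen VI passed the threshold of 0.01 in wild-type injury. Col6a1 stood at 2.18, 2.24, 2.60, 2.31 and 2.17 in uninjured and 2.79, 3.49, 3.38, 3.25 and 2.92 in injured arrays. These groups were apart, with a difference of 0.86 (limma adjusted p = 0.108). For Col6a2 the brightest probe gave 0.98 (adjusted p = 0.107) with groups that overlapped, and a dimmer, tighter one gave 0.89 (adjusted p = 0.0104) with groups that did not. The dimmer probe was called with the slide as a replicate block, at an adjusted p of 0.00892. The short-chain collagens did not share this: the differences were -0.08 for Col8a1 and -0.27 for Col8a2, whose chains form the network under vascular and corneal endothelium. The class had 3 of 5 genes above 0, and its median was 0.86.

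In the basement membrane class, 5 of 8 genes were above 0 and the median was 0.34. Col4a1 and Col4a2 encode the chains of the common type IV network, and their annotated starts in GRCm38.p6 lie 21 bases apart on opposite strands. Col4a1 stood at 2.06, 2.12, 2.20, 2.47 and 2.25 in uninjured and at 2.81, 2.99, 3.05, 2.82 and 3.15 in injured wild-type arrays. The groups did not overlap, and the difference was 0.75 (SE 0.31, limma adjusted p = 0.126).

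Col4a2 stood at 1.32, 1.61, 2.18, 2.30 and 1.54 and then at 2.28, 3.00, 2.74, 2.91 and 2.52, a difference of 0.90 (SE 0.49, limma adjusted p = 0.256). Its lowest injured array lay just below its highest uninjured one. Col4a5 (-0.29) and Col4a6 (-0.64, adjusted p = 0.0390), whose chains build the type IV network of a few specialised epithelia and smooth muscle, were below 0. The 2 Col4a4 probes differed in sign, at 0.35 for the brighter and -0.63 for the dimmer.

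Col7a1, which encodes the anchoring fibrils that tie the epithelium to the tissue below, had nearly the same level in both groups. It stood at 1.60, 1.59, 2.33, 1.65 and 2.10 in uninjured and at 1.80, 1.61, 2.23, 1.57 and 1.79 in injured wild-type arrays (difference -0.05). Col15a1, a multiplexin like Col18a1, stood at 0.56, 0.38, 0.25, 0.38 and 0.73 and then at 0.66, 0.65, 0.81, 0.75 and 1.06. Its groups overlapped, and the difference was 0.32 (limma adjusted p = 0.154), well under that of Col18a1.

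The tracheal rings are cartilage, and its collagens were divided after injury. Col2a1, the main fibril collagen of cartilage, stood at 3.64, 3.61, 3.72, 3.15 and 3.20 in uninjured and at 4.11, 4.98, 4.86, 4.56 and 3.97 in injured wild-type arrays. Every injured array was higher, by 1.03 on average (SE 0.36, limma adjusted p = 0.0691), and a second probe gave 0.72 (adjusted p = 0.337). The other cartilage genes were close to 0 or below it.

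Col11a1, which nucleates cartilage fibrils, was at 1.63, 1.58, 1.29, 1.14 and 2.07 in uninjured and 1.39, 1.54, 1.81, 1.19 and 1.87 in injured arrays (difference 0.02). Col10a1, the marker of hypertrophic chondrocytes, was at -0.50, 0.55, -1.06, -0.53 and 0.08 and then at -1.43, -0.28, -0.98, -1.06 and -1.34 (difference -0.73, adjusted p = 0.308). Col9a1 was at -0.78, -0.50, -1.13, -1.27 and -1.57 and then at -1.73, -0.39, -1.02, -0.97 and -1.77 (difference -0.13). The groups overlapped for all 3. The class had 4 of 7 genes above 0, with a median of 0.02.

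Among the FACIT collagens, Col14a1, which regulates fibril growth in skin and tendon, was at 2.55, 2.01, 2.05, 2.41 and 2.11 in uninjured and 3.13, 2.28, 3.29, 2.52 and 3.48 in injured wild-type arrays (difference 0.72, limma adjusted p = 0.112). Its groups overlapped. Col16a1 did not overlap, at 3.25 to 3.75 and 3.84 to 4.10 (difference 0.54, adjusted p = 0.105). Col22a1, a collagen of tissue junctions such as that of muscle and tendon, was below 0 with both probes (-0.98 and -0.86, adjusted p = 0.0157 and 0.0379), and neither had groups that overlapped. With the slide as a replicate block both probes were called lower, at an adjusted p of 0.00612 for the brighter one.

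Col12a1, a stress-responsive fibril-associated collagen, was dim, with 3 of 5 uninjured and 5 of 5 injured wild-type arrays well above background. It stood at -4.74, -4.51, -4.62, -3.50 and -4.91 and then at -3.92, -4.21, -3.49, -4.11 and -3.13 (difference 0.68, limma adjusted p = 0.425). The FACIT class had 3 of 6 genes above 0 and a median of 0.10. Of the transmembrane collagens 0 of 3 were above 0: the differences were -0.37 for Col13a1, -0.82 for Col23a1 (adjusted p = 0.0643) and -0.10 for Col25a1.

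**Figure D2:**
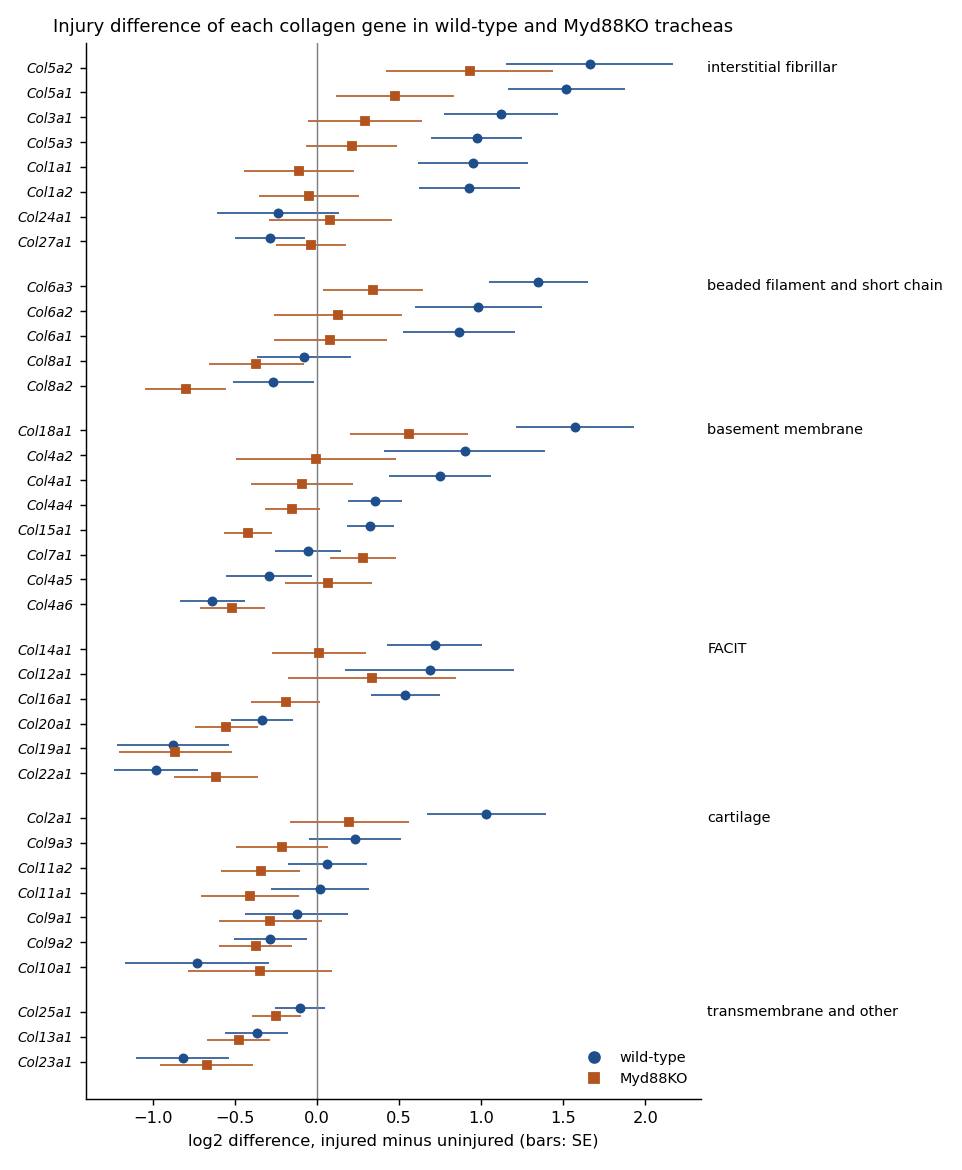
Log2 difference between injured and uninjured tracheas for the 37 tested collagen genes by class, in wild-type (circles) and Myd88KO mice (squares), 1 probe per gene, with bars for the SE. In wild-type mice 6 of 8 fibrillar genes (class median 0.96) and the type VI genes lie to the right of 0, and the transmembrane genes lie to the left.

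In Myd88KO tracheas, no collagen probe was called after injury in either direction by limma (adjusted p under 0.01), where 0.134% of all probes were called higher and 0.242% lower. At an unadjusted p under 0.05, 0 collagen probes were higher and 13 were lower (22%, all probes 12.2%), beside 7.32% of all probes that were higher. The groups did not overlap for 2 probes that were lower, Col8a2 and Col13a1 (3.39%, all probes 2.3%). The difference was above 0 for 24 of 59 collagen probes (40.7%, all probes 42.3%). The class medians were 0.15 for the fibrillar, 0.08 for the beaded filament, -0.05 for the basement membrane, -0.34 for the cartilage, -0.37 for the FACIT and -0.48 for the transmembrane class. These means hide a wide spread between the injured Myd88KO arrays.

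Col18a1 was at 2.06, 2.75, 2.71, 2.29 and 2.18 in uninjured Myd88KO arrays and at 2.34, 4.06, 2.86, 3.95 and 1.57 in injured ones. Replicates 2 and 4 lay within the range of injured wild-type arrays, replicate 5 was below every uninjured array, and the mean difference was 0.56 (limma adjusted p = 0.412). Col5a1 was at 3.13, 2.59, 2.44, 2.81 and 2.97 and then at 2.53, 4.34, 3.39, 4.24 and 1.82 (difference 0.47, adjusted p = 0.50). Col6a3 was at 3.68, 3.52, 3.37, 3.61 and 3.19 and then at 3.09, 4.72, 4.26, 4.46 and 2.53 (difference 0.34, adjusted p = 0.577). In both genes replicates 2, 3 and 4 lay above every uninjured Myd88KO array, and replicate 5 lay below them all.

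Collagen I and III showed the same order of arrays. Col1a1 was at 6.91, 6.29, 6.19, 6.25 and 6.80 in uninjured and 5.81, 7.35, 6.67, 7.07 and 4.99 in injured Myd88KO arrays (difference -0.11). Col1a2 was at 6.97, 6.35, 6.10, 6.30 and 6.63 and then at 5.74, 7.28, 6.58, 7.10 and 5.40 (difference -0.05). Col3a1 was at 6.90, 5.79, 5.43, 6.04 and 6.55 and then at 6.29, 7.27, 6.48, 7.11 and 5.03 (difference 0.29). Replicates 2 and 4 were above and replicate 5 below all uninjured Myd88KO arrays in each of the 3 genes.

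The network collagens followed too. Col4a1 was at 2.01, 2.52, 2.49, 2.49 and 1.95 in uninjured and 0.94, 3.01, 2.33, 3.21 and 1.49 in injured Myd88KO arrays (difference -0.09). Col4a2 was at 1.20, 2.43, 2.50, 2.44 and 1.20 and then at 0.33, 2.99, 2.56, 3.37 and 0.50 (difference -0.01). Col6a1 was at 2.23, 2.58, 2.44, 2.64 and 1.93 and then at 1.41, 3.38, 3.02, 3.24 and 1.19 (difference 0.08). For these 3 genes replicates 1 and 5 were the lowest injured arrays and lay below every uninjured one.

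**Figure D3:**
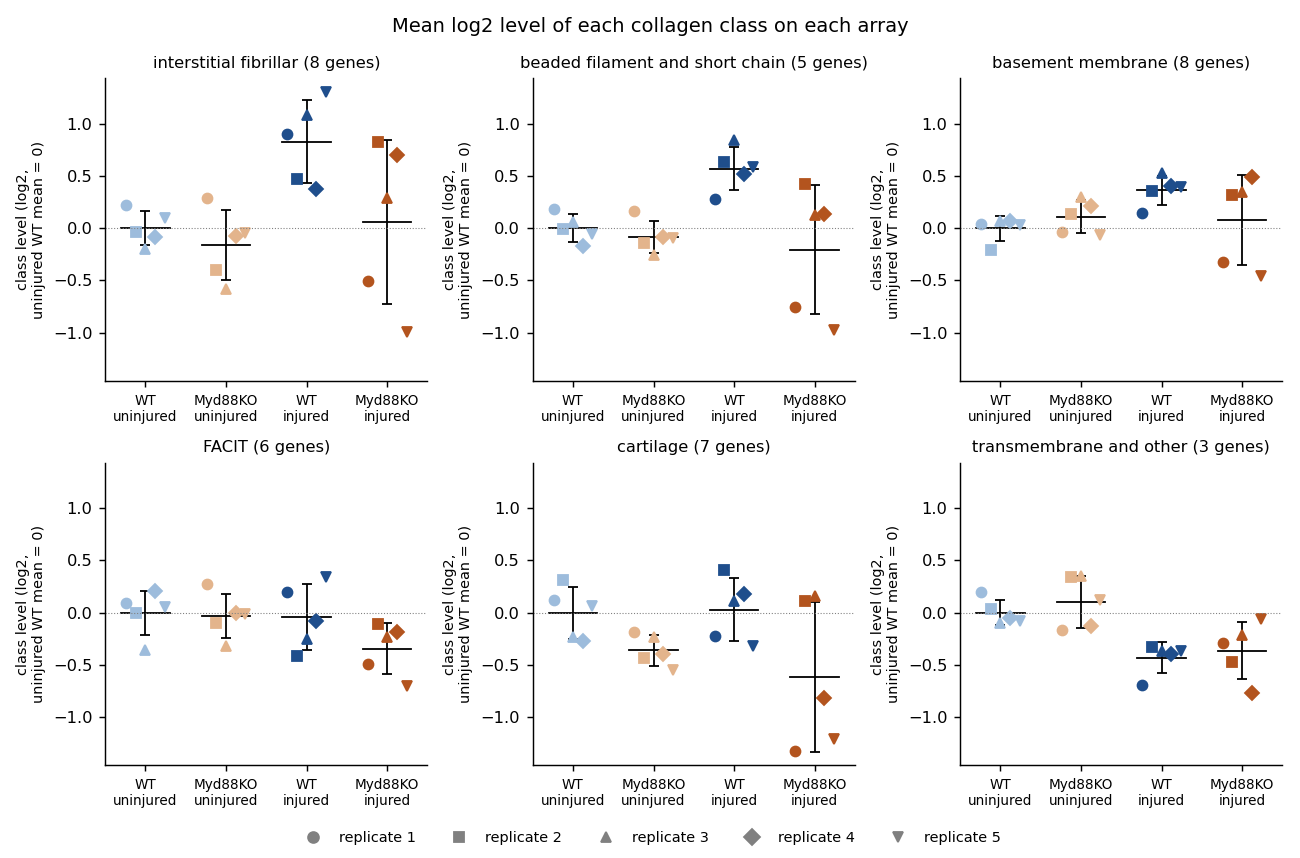
Mean log2 level of the genes of each collagen class in each array, relative to the mean of the 5 uninjured wild-type arrays, by group. Each point is 1 array, its shape gives the replicate number, the line is the group mean and the bar the SD. The fibrillar class ranges from 0.37 to 1.30 in injured wild-type arrays and from -0.99 to 0.83 in injured Myd88KO arrays, where replicates 1 and 5, scanned on the later day, lie lowest.

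The spread of the injured Myd88KO arrays lined up with the scan day. On the 3 slides of the earlier day, injury in Myd88KO tracheas gave a difference above 0 for 38 of 59 collagen probes (64.4%, all probes 46.6%), with a median of 0.35, and for 8 of 8 fibrillar genes, with a median of 0.78. On the 2 slides of the later day it was above 0 for 4 of 59 collagen probes (6.78%, all probes 37.6%), with a median of -0.74, and for 0 of 8 fibrillar genes, with a median of -0.81. In wild-type tracheas 39 of 59 probes on the earlier and 31 on the later day were above 0 (66.1% and 52.5%, all probes 51.7% and 50.5%), with medians of 0.38 and 0.08, and the fibrillar medians were 0.99 and 1.00. The wild-type cartilage class had 6 of 7 genes above 0 on the earlier day (median 0.18) and 2 of 7 on the later (median -0.50). The difference in Myd88KO was 0.79 on the earlier and -1.45 on the later day for Col1a1, 1.20 and -1.07 for Col3a1, 1.37 and -0.87 for Col5a1, 0.98 and -0.62 for Col6a3, and 1.04 and -0.16 for Col18a1. By limma with terms for group and scan day, no probe of the array differed between the days in its Myd88KO injury difference at an adjusted p under 0.01; at an unadjusted p under 0.05, 38 of 59 collagen probes did (64.4%, all probes 12.8%). With 2 slides on the later day, these are the values of 2 mice per group. The fit was added after the arrays had been seen, so its p values are no separate evidence of the split.

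Injured Myd88KO and injured wild-type tracheas were then compared directly. No collagen probe was called by limma at an adjusted p under 0.01, where 0.15% of all probes were called higher and 0.23% lower. At an unadjusted p under 0.05, 27 of 59 collagen probes were lower in Myd88KO (45.8%, all probes 8.09%) and 0 were higher (all probes 4.43%). The difference was above 0 for 11 of 59 (18.6%, all probes 45.3%), and its median was -0.65, beside -0.03 for all probes. The groups did not overlap for 5 probes, all lower in Myd88KO (8.47%, all probes 1.26%): both of Col15a1, the brightest of Col8a1 and Col8a2 and the dimmer of Col11a1. The class medians were -0.99 for the fibrillar, -0.79 for the beaded filament, -0.69 for the cartilage, -0.37 for the basement membrane and -0.30 for the FACIT class, and 0.03 for the transmembrane class.

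Col15a1 came nearest to the threshold in this comparison. Its chain is found where basement membranes meet fibrils, around muscle and small vessels. It was at 0.66, 0.65, 0.81, 0.75 and 1.06 in injured wild-type and at -0.29, 0.45, 0.33, 0.13 and -0.08 in injured Myd88KO arrays, so that every Myd88KO array lay lower. The difference was -0.67 (SE 0.14, limma adjusted p = 0.0304), below 0 on 5 of 5 slides, at -0.43 on the earlier and -1.04 on the later scan day. It was the only collagen probe under an adjusted p of 0.05 (1.69%, all probes 0.449% lower). In uninjured Myd88KO arrays it was at 0.65, 0.39, 0.56, 0.55 and 0.50, within the wild-type range.

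Both short-chain collagens had groups that were apart. Col8a1 was at 5.09, 4.94, 5.69, 4.84 and 5.75 in injured wild-type and at 4.16, 4.66, 4.54, 4.44 and 4.09 in injured Myd88KO arrays (difference -0.89, limma adjusted p = 0.196). Col8a2 was at 1.92, 2.01, 2.09, 2.18 and 2.36 and then at 1.89, 1.55, 1.47, 0.97 and 1.89 (difference -0.56, adjusted p = 0.349). Replicates 1 and 5 were the lowest injured Myd88KO arrays for Col8a1 and the highest for Col8a2.

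In the cartilage class, the dimmer Col11a1 probe was at 0.51, 0.37, 0.39, 0.18 and 0.42 in injured wild-type and at -1.10, -0.24, -0.23, -1.13 and -0.21 in injured Myd88KO arrays (difference -0.95, limma adjusted p = 0.140). The brighter one, at -0.40, 1.21, 1.26, 0.96 and -0.07 in injured Myd88KO arrays, gave -0.97 (adjusted p = 0.172) with groups that overlapped. Col2a1 was at 2.78, 4.38, 4.41, 3.49 and 1.95 in injured Myd88KO arrays, lower than the wild-type array of the same slide on 5 of 5 slides (difference -1.09, adjusted p = 0.206). The anchoring fibril gene Col7a1 was at 1.54, 1.89, 2.52, 2.20 and 2.14 in injured Myd88KO arrays, above the wild-type array of the same slide on 4 of 5 slides (difference 0.26).

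This comparison of injured tracheas was also read by scan day. On the earlier day 19 of 59 probes were above 0 (32.2%, all probes 45.3%), the median was -0.18 and the fibrillar median was -0.14. On the later day 14 were above 0 (23.7%, all probes 46.4%), the median was -1.17 and the fibrillar median was -2.12. The cartilage class had 1 of 7 genes above 0 on each day (medians -0.43 and -1.10), and the beaded filament and short-chain class 0 of 5 on each (-0.32 and -1.49). The other medians were -0.05 and -0.50 for the basement membrane, 0.06 and -0.90 for the FACIT and -0.09 and 0.02 for the transmembrane class. Col1a1 differed by -0.30 on the earlier and -2.33 on the later day, Col3a1 by -0.30 and -2.05, Col5a1 by -0.16 and -2.35, Col6a3 by -0.31 and -1.87, Col4a1 by -0.11 and -1.77, and Col18a1 by 0.04 and -1.92. In the limma fit with group and scan day, 15 of 59 collagen probes differed between the days at an adjusted p under 0.01, all lower on the later day (25.4%, all probes 0.967% lower and 1.86% higher). They stand for 10 genes: Col1a1, Col1a2, Col3a1, Col5a1, Col5a2, Col6a1, Col6a3, Col4a1, Col4a2 and Col15a1. By class they were 7 of 14 fibrillar, 3 of 8 beaded filament and 5 of 15 basement membrane probes, and 0 of the cartilage, FACIT and transmembrane probes. This fit was added after the arrays had been seen, and the later day holds the 2 injured Myd88KO arrays that resemble uninjured tissue, so scan day and those mice cannot be told apart. Its p values restate a split already seen in the same arrays and are no separate evidence.

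Leaving out 1 injured Myd88KO array changed the size of the difference. Without replicate 5 the collagen median against injured wild-type was -0.40 with 7 of 59 probes above 0, and the fibrillar median was -0.61. Without replicate 1 they were -0.48 with 11 of 59, and -0.77. Of all 26063 probes, 11402 were above 0 without replicate 5 (median -0.05) and 12212 without replicate 1 (median -0.02). Over the same settings the fibrillar median of the Myd88KO injury response was 0.33 (7 of 8 genes above 0) and 0.23 (8 of 8). Leaving out replicate 2 widened the difference from injured wild-type, from -1.11 to -1.35 for Col1a1 and from -1.04 to -1.31 for Col5a1. It lowered the Myd88KO injury difference in mean fibrillar level from 0.22 to 0.03.

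Uninjured Myd88KO and wild-type tracheas differed in no collagen probe by limma at an adjusted p under 0.01, where 0.188% of all probes were higher and 0.196% lower. At an unadjusted p under 0.05, 1 collagen probe was higher and 1 lower (all probes 3.82% and 1.77%). The difference was above 0 for 26 of 59 probes (44.1%, all probes 56.7%). In the cartilage class 0 of 7 genes and 1 of 10 probes were above 0, and the median over genes was -0.35. Its mean level was -0.36 ± 0.15 (SD, n = 5) in uninjured Myd88KO arrays relative to the wild-type mean, and it was lower than the wild-type array of the same slide on 5 of 5 slides. Its genes included Col10a1 (-0.60), Col11a1 (-0.54), Col9a1 (-0.53), Col9a3 (-0.35) and Col2a1 (-0.26), none with an adjusted p under 0.05. The fibrillar class had 1 of 8 genes above 0 (median -0.13), and the basement membrane class 6 of 8 (median 0.09). The transmembrane class had 3 of 3 above 0 (median 0.10). By scan day, the basement membrane class had 6 of 8 above 0 on the earlier (median 0.30) and 2 of 8 on the later day (median -0.15). The transmembrane class had 3 of 3 (median 0.24) and then 1 of 3 (median -0.13), and the cartilage class 0 of 7 on each day (all probes 56% and 53.8%). The mean log2 level of 2 marker lists did not overlap between the uninjured groups, relative to the wild-type mean. It was 0.17 to 0.43 in Myd88KO against -0.04 to 0.03 in wild-type arrays for smooth muscle, and 0.64 to 1.11 against -0.60 to 0.45 for adipocytes, with 0 genes called in either list. Their part in these collagen differences was not tested.

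Whether the injury response itself differed between the genotypes was tested as the difference of the 2 injury differences. By limma no probe of the array passed an adjusted p under 0.01, collagen or other (0% in each direction). At an unadjusted p under 0.05, 8 collagen probes had a smaller response in Myd88KO (13.6%, all probes 6.96%) and 0 a larger one (all probes 3.41%). The difference of responses was above 0 for 13 of 59 (22%, all probes 41.3%), with a median of -0.49 beside -0.09 for all probes. On the earlier scan day it was above 0 for 17 of 59 (28.8%, all probes 42%), with a median of -0.23, and on the later day for 13 of 59 (22%, all probes 43.1%), with a median of -0.85. It was -1.01 (SE 0.51, adjusted p = 0.499) for Col18a1, -1.04 (adjusted p = 0.487) for Col5a1, -1.01 (adjusted p = 0.447) for Col6a3 and -0.74 (SE 0.20, adjusted p = 0.391) for Col15a1. These values carry the spread of the injured Myd88KO arrays described above.

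Genes that make, bind, process or degrade collagen were followed as a list of 45 genes, 40 of them tested. After injury in wild-type mice 30 of 40 were above 0 (all probes 50%) with a median of 0.47, and 3 rose by limma at an adjusted p under 0.01 (all probes 3.24%). All 3 were listed under breakdown and uptake, 2 as enzymes and 1 as an inhibitor. Mmp9, a gelatinase, rose by 2.22 (limma adjusted p = 0.00419) and Mmp14, a membrane-bound collagenase, by 1.47 (adjusted p = 0.00143). Timp1, an inhibitor of matrix metalloproteinases, rose by 4.08 (adjusted p = 0.000792). The 7 tested genes listed under breakdown and uptake, Timp1 among them, were all above 0, with a median of 1.42. No listed gene was called lower (all probes 2.03%). Leaving out 1 array gave 2 to 6 genes called higher: 6 without injured Myd88KO replicate 5, where Fkbp10, Adamts2 and Pcolce passed too, and 5 without its replicate 1. The share of all probes called in these fits is not given here, so the counts do not show whether the list moved more than the array did.

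The genes of collagen synthesis lay, by group median, between these and 0, with some single genes below 0. Those that process the propeptides had a median of 0.69 (4 of 5 above 0), with 0.97 for Adamts2 (limma adjusted p = 0.0105), 0.80 for Bmp1 (adjusted p = 0.0207) and 0.69 for the enhancer protein Pcolce (adjusted p = 0.0114). Its relative Pcolce2 was at -0.87 (adjusted p = 0.0376). The crosslinking enzymes had a median of 0.81 (4 of 5 above 0), with 1.31 for Loxl2 (adjusted p = 0.0170), 1.00 for Lox (adjusted p = 0.135) and 0.81 for Loxl1 (adjusted p = 0.0443). The chaperones were above 0 in 4 of 4, at 1.06 for Fkbp10 (adjusted p = 0.0231) and 0.52 for Serpinh1, the collagen-specific chaperone of the endoplasmic reticulum. The hydroxylases had a median of 0.37 (8 of 10 above 0). The small proteoglycans that coat fibrils (median 0.04) and the collagen receptors (median -0.11, 1 of 5 above 0) were near 0.

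In Myd88KO tracheas 0 of the 40 genes were called after injury (all probes 0.134% higher and 0.242% lower), 22 were above 0 (all probes 42.3%) and the median was 0.07. Without injured Myd88KO replicate 5, 1 gene was called higher and 1 lower (all probes 1.87% and 2.26%). Timp1 was at 2.06 (limma adjusted p = 0.0865). Its level in injured Myd88KO arrays was 2.65, 5.09, 3.01, 6.09 and 1.41, with replicates 2 and 4 in the injured wild-type range (4.94 to 6.87) and replicate 5 in the uninjured wild-type range (1.05 to 2.25). By scan day, 32 of 40 were above 0 on the earlier day (median 0.42, all probes 46.6% above 0) and 3 of 40 on the later (median -0.49, all probes 37.6%). Against injured wild-type tracheas, 5 of 40 were above 0 (all probes 45.3%) and the median was -0.53, with 0 called (all probes 0.15% higher and 0.23% lower). The medians by day were -0.13 (15 of 40 above 0, all probes 45.3%) and -0.98 (6 of 40, all probes 46.4%). With the slide as a replicate block, Pcolce was called higher in wild-type mice (adjusted p = 0.00991) and Pcolce2 lower in both genotypes (adjusted p = 0.00588 and 0.00939).

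**Figure D4:**
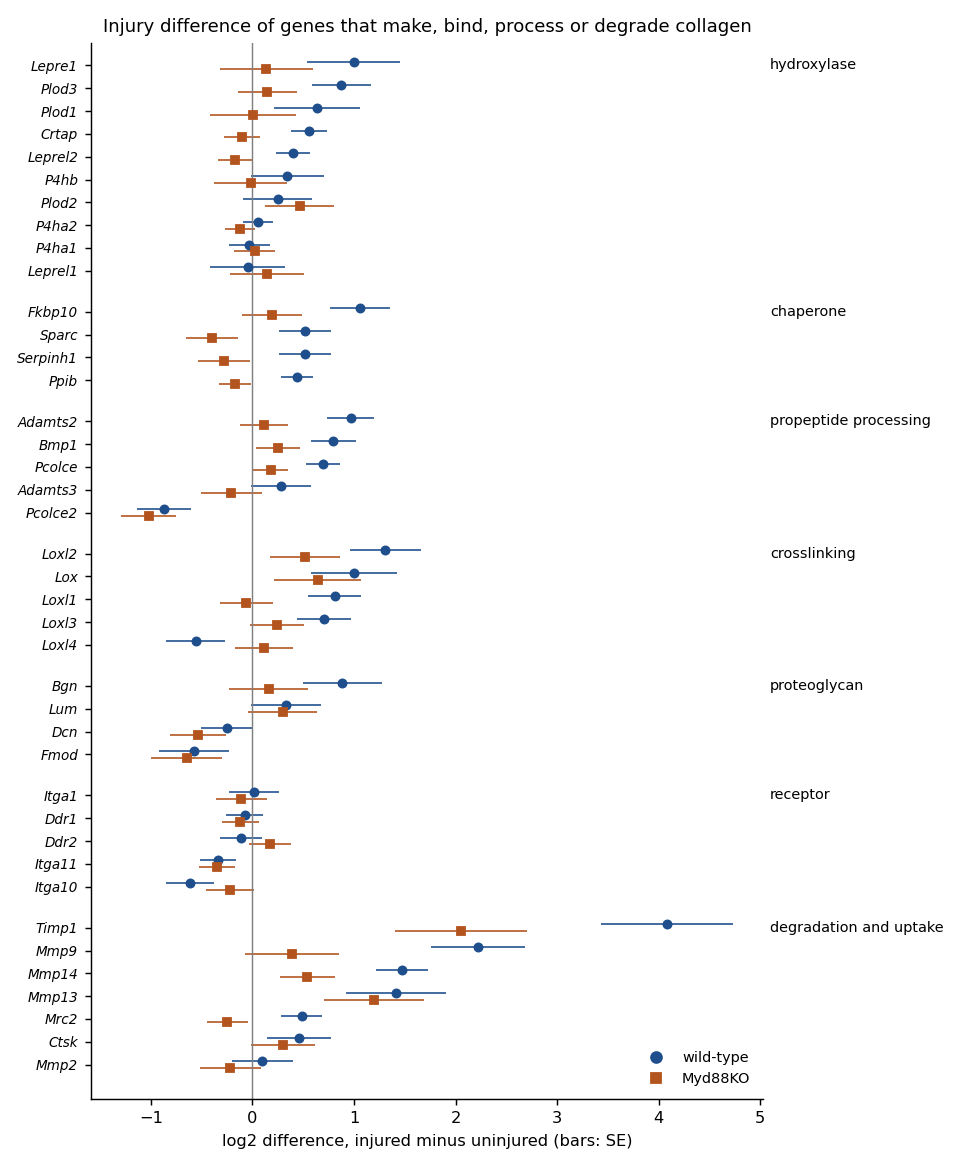
Log2 difference between injured and uninjured tracheas for the 40 tested genes that make, bind, process or degrade collagen, by role, in wild-type (circles) and Myd88KO mice (squares), with bars for the SE. In wild-type mice the breakdown and uptake genes have the highest median (1.42) and the receptors the lowest (-0.11).

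Markers of the cells in whole trachea were read beside the collagens. Of all probes, 3.24% were called higher after injury in wild-type and 0.134% in Myd88KO mice. Of 7 fibroblast markers, 1 rose after injury in wild-type mice, Thy1 (1.08, limma adjusted p = 0.00409), and the median was 0.10. The summed level of the list, in multiples of the 75th percentile, was 193 to 370 in uninjured and 180 to 371 in injured wild-type arrays, and 54.5 to 375 and 163 to 259 in Myd88KO arrays. A marker without a value on an array adds nothing to such a sum, so a low sum need not be a low level. As a mean log2 level the fibroblast list was at -0.31 to 0.34 in uninjured wild-type and -0.32 to 0.48 in uninjured Myd88KO arrays. Of 7 myeloid markers 4 rose in wild-type mice (Csf1r, Emr1 and Cd68 of macrophages and Csf3r of neutrophils) and the median was 2.77. Their summed level was 6.49 to 37.7 in uninjured and 31.1 to 279 in injured wild-type arrays, and 3.86 to 8.09 and 3.28 to 60.3 in Myd88KO arrays. The myeloid list, as a mean log2 level, was at -0.15, 2.51, -0.38, 2.80 and -1.73 in injured Myd88KO replicates 1 to 5, so that replicates 2 and 4 were high here as they were for the collagens. Replicate 3 did not follow: its Col5a1 and Col6a3 lay above every uninjured Myd88KO array, but its myeloid level lay within the uninjured range. In wild-type arrays this mean was -0.40 to 1.04 before and 2.25 to 4.11 after injury, with no overlap. Between injured Myd88KO and injured wild-type arrays the median difference of the myeloid markers was -0.34 on the earlier and -3.96 on the later scan day, and that of the fibroblast markers -0.37 and -0.82. All markers of both lists were tested, and their part in the collagen differences was not tested.

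Of 10 chondrocyte markers 0 were called in either genotype after injury (1 lower in wild-type mice without injured wild-type or injured Myd88KO replicate 4), with medians of -0.45 and -0.43. Their summed level was 65.2 to 136 in uninjured and 53.2 to 78.7 in injured wild-type arrays, while Col2a1 was higher on every injured wild-type array. Proliferation markers were called higher in 3 of 5 in wild-type mice (median 2.54) and in 0 of 5 in Myd88KO mice (median 2.12), beside 3.24% and 0.134% of all probes. Tested for a response that differed by genotype, 0 of these 5 markers were called (median 0.20, 3 of 5 above 0). The Myd88KO count was 4 of 5 without injured Myd88KO replicate 5, when 2 of 7 myeloid markers were called higher as well. In that fit the share of all probes called higher rose too, as given above. The Myd88KO proliferation count was 1 of 5 with the slide as a replicate block (all probes 0.196% higher) or without uninjured wild-type replicate 3. In wild-type mice, leaving out 1 array gave 1 to 4 proliferation, 1 to 5 myeloid and 0 to 1 fibroblast markers called higher. The share of all probes called higher is given only for the fit without injured Myd88KO replicate 5 (4.45% in wild-type mice). These counts therefore do not show whether the markers moved more than the array did. The proliferation count fell to 1 without uninjured wild-type replicate 1, 2 or 4 or injured wild-type replicate 1, 2 or 3, the myeloid count to 1 or 2 without uninjured wild-type replicate 2 or 4 or injured wild-type replicate 1 or 5, and Thy1 lost its call without uninjured wild-type replicate 2, 3 or 4 or injured wild-type replicate 1, 3 or 5. Scgb1a1, the secretory protein of club cells that the detergent removes, fell in both genotypes, by 7.91 and 6.24 (adjusted p = 1.05e-05 and 0.000690). In injured Myd88KO arrays it was at 4.79, -0.84, 2.72 and 0.18 in replicates 1 to 4, against -1.16 to -0.08 in injured and 6.98 to 7.93 in uninjured wild-type arrays, and it has no value in replicate 5. The Myd88KO fall therefore rests on 4 injured arrays and leaves out replicate 5, which resembled uninjured wild-type arrays. Scgb1a1 was 1 of 6 epithelial markers and the only one called. The mean log2 level of the 6 was -0.12 to 0.21 in uninjured and -2.11 to -0.60 in injured wild-type arrays, with no overlap, and that of the other 5 was -0.15 to 0.17 and -0.85 to 0.80, with overlap. The part of the epithelial and proliferation lists in the collagen differences was not tested. Smooth muscle, endothelial, skeletal muscle, adipocyte, thyroid and nerve sheath lists had 0 genes called after injury in either genotype (leaving out injured Myd88KO replicate 1 gave 1 endothelial gene higher in wild-type mice, and leaving out its replicate 5 gave 1 smooth muscle gene lower in Myd88KO mice). The nerve sheath list did not overlap in Myd88KO arrays, at -0.08 to 0.17 before and -0.80 to -0.14 after injury, and its part in the collagen differences was not tested.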

How the data were processed

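RNA from 20 whole tracheas, 5 in each of 4 groups, was hybridised to 1-colour Agilent mouse arrays. The authors deposited the intensity of every spot after background subtraction and detrending by the Feature Extraction software (version 9.5.1.1 in the file headers), with no scaling between arrays, and a table of values, which gave these intensities to fewer digits (0.995 to 1.00 times those of the scanner). Group names came from the sample labels. A column that belongs to other samples was found 0 times. The build of the positions in the files is not given in the sources used here.

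Of the 45018 spots of an array, 1639 controls were set aside. Outlier spots were left out (1960 values, 8 of them on collagen probes), and no collagen spot was saturated. The log2 intensity of a probe, averaged over its spots, was taken minus that of the 75th percentile on the same array, so the deposited intensity enters on a log2 scale. Probes well above background on at least 10 of 20 arrays were fitted by limma 3.58.1 under R 4.3.3, all arrays together, for 5 contrasts with moderated variances (functions lmFit and eBayes), a procedure tested first on simulated data. Adjustment of p was by Benjamini-Hochberg over all 26063 probes of a contrast, and an adjusted p under 0.01 was called, as in the study's methods. The methods name a one-way parametric test instead, which was run as an alternative, together with a slide block, other scalings, another background correction, no filter and each array left out.

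Each slide held 1 array of every group, all with the same replicate number, so the number marks a slide. Deviations of same-numbered arrays from their group means correlated by -0.262 to 0.476 (median 0.242, over 0.1 in 23 of 30 pairs), against a median of -0.080 for different numbers.

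Collagen probes were matched to RefSeq genes by accession (56), symbol (21) or older symbol (3). Values per array are given for every collagen gene called in any contrast and for Col1a1, Col1a2, Col3a1, Col5a1, Col2a1, Col9a1, Col10a1, Col11a1, Col4a1, Col4a2, Col7a1, Col15a1, Col18a1, Col6a1, Col12a1 and Col14a1, and other collagen genes named were chosen after their values were seen. The members, classes and gene lists were chosen with earlier results of these data known.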

Additional observations from a re-analysis of the deposited data

Results flagged for a closer look

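Of 92 groups of 5 arrays examined for 1 array far from the rest, 4 had one, about the 1 in 20 that chance gives. Col14a1 in injured Myd88KO replicate 5 was at 1.25, below the 2.36 to 2.68 of the other injured Myd88KO arrays, a gap of 0.778 of the whole range. Col12a1 in uninjured wild-type replicate 4 was at -3.50, above the -4.91 to -4.51 of its group, with a gap of 0.720 of the range. The mean level of the basement membrane class in uninjured wild-type replicate 2 was at -0.21, where the others lay between 0.03 and 0.07 (gap 0.867 of the range). The mean level of the transmembrane class in injured wild-type replicate 1 was at -0.70, where the others lay between -0.39 and -0.33 (gap 0.814).

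In injured tracheas, the difference between genotypes itself differed between the scan days in 15 of 59 collagen probes (limma, Benjamini-Hochberg adjusted p under 0.01). All were lower on the later day (25.4%, all probes 0.967% lower and 1.86% higher), in a fit added after the arrays had been seen. The largest values were -3.50 for the dimmer Col6a3 probe (adjusted p = 0.000799), -3.23 for a dimmer Col1a1 probe (adjusted p = 0.000824) and -3.16 for the dimmer Col3a1 probe (adjusted p = 0.00116). The next below the threshold was Col16a1 at -1.10 (adjusted p = 0.0101). The later day holds 2 arrays of each group, among them the injured Myd88KO arrays that resemble uninjured tissue. These p values therefore restate a split already seen in the same arrays.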

How the results depend on the processing

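All 3 calls in injured wild-type tracheas lie close to the threshold. Under the alternatives, the genes listed for values per array were followed for injury in wild-type and for injured Myd88KO against wild-type. The classes were followed for injury in each genotype. None of these values changed direction past a threshold under any alternative. The 3 collagen probes higher and 0 lower (all probes 3.24% and 2.03%) became 6 and 1 with the scan day as a block (4.98% and 3.1%). They were 15 and 3 under array weights (all probes 6.09% and 3.88%, with 1 higher and 1 lower in Myd88KO injury beside 2.96% and 4.35%), 13 and 1 with only the 2 groups in the fit (3.86% and 2.19%), and 12 and 3 at an adjusted p under 0.05 (7.74% and 4.98%, with 1 lower in injured Myd88KO against wild-type beside 0.449%). By the methods' one-way test on the 2 groups they were 8 and 1 after Benjamini-Hochberg adjustment (2.66% and 1.37%) and 21 and 3 before it (9.22% and 5.36%, with 1 lower in Myd88KO injury beside 3.15% and 3 lower in injured Myd88KO against wild-type beside 1.5%). Array median scaling gave 5 higher (3.84%), quantile normalization 1 (3.46%) and no filter on dim probes 1 (1.59%). With the slide as a replicate block 3 were higher and 2 lower (3.55% and 2.39%), and the block changed no other collagen count. The block without injured Myd88KO replicate 5, added after the data were seen, gave 9 higher and 2 lower (5.06% and 3.18%). Leaving out 1 array gave 0 to 7 higher and 0 to 1 lower in wild-type injury and 0 to 1 lower in Myd88KO injury. The 7 and 1 in wild-type injury came without injured Myd88KO replicate 5, beside 4.45% and 2.62% of all probes. The 1 lower in Myd88KO injury came from the same fit, beside 2.26%. Shares of all probes are not given beside the other counts, which therefore do not show whether the collagens moved more than the array did. The cause of these shifts was not tested. Over 13 alternatives with an adjusted p, it ranged from 0.000705 to 0.0133 for Col18a1, from 0.000161 to 0.0187 for Col6a3 and from 0.000354 to 0.0181 for Col5a1. With 1 array left out it reached 0.0238, 0.0184 and 0.0264 in turn, and the calls were lost in 10, 9 and 16 of 20 fits. The difference between the injury responses had 0 collagen calls under each alternative that fits all 4 groups, where 0 to 3 of all probes were called in either direction. Col12a1 was well above background on 14 of 20 arrays, so its values carry more error than those of brighter probes.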
